A study of Mus musculus with 8 samples.

Results

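The genes described here are 49 interferon-stimulated genes, RNA and DNA sensors and genes of interferon signalling, found among 46078 gene IDs in mouse RNA-sequencing counts. They were chosen from the known members of the interferon pathway with the counts of these same 8 libraries in view, so their levels and changes are given as a description, and the counts of genes passing the limits are read beside the share of all genes that pass. All 49 were found by symbol, and all 49 passed the filter on low counts (a mean above 10). Of these, 13 had at most 3 counts in each ESC library and passed it only through the differentiated cells. By role they comprised 18 effectors, 7 sensors and adaptors, 9 receptors, transcription factors and feedback genes, 12 other induced genes and 3 genes of antigen presentation. A further 139 genes of the same pathway, listed by role, were followed beside them.

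In this pathway, foreign or displaced nucleic acid is bound by sensors such as RIG-I (Ddx58), MDA5 (Ifih1) and Tlr3, whose adaptors lead to the making of type I and type III interferons. A type I interferon binds the receptor chains Ifnar1 and Ifnar2, the kinases Jak1 and Tyk2 then signal through the factor ISGF3, of which Stat2 and Irf9 are parts and which binds the interferon-stimulated response element of its target genes. Many targets block viral RNA, protein synthesis or virus release, others present antigen, and some, such as Usp18, dampen the receptor. Mouse embryonic stem cells are known for a weak response to interferon.

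Starting from mouse embryonic stem cells (ESCs), the study derived Sertoli cell-like cells (SCLCs) and primordial germ cell-like cells, and 2 libraries were analysed here for each of 4 groups. The tcESCs are an XY ESC line with the tesco-cfp reporter, in which a Sox9 testis enhancer drives CFP, and the tc;Sf1ESCs are 1 G418-resistant clone of that line with an added Sf1 (Nr5a1) transgene. The SCLCs are CFP-positive cells sorted at day 12 of testicular cell culture from the tc;Sf1ESCs, so they carry both transgenes, and CFP was the sole marker of the sort. The todPGCLCs are cells sorted by GFP and a surface marker from day 6 organoids in which epiblast-like cells of another ESC line, with a Prdm1-gfp reporter, were aggregated with cells of tc;Sf1ESC origin. The ESCs of that line were not analysed here, so for todPGCLCs the ESC line and the cell type cannot be told apart. The ESCs were kept without feeder cells.

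The libraries held 25411033 to 30680191 counts on genes, at which 3 counts amount to 0.0978 to 0.118 CPM (a gene's counts per sum of all gene counts in its library, scaled up). The transgene's gene Nr5a1 had 1 and 0 counts in tcESCs, 52 and 30 in tc;Sf1ESCs, 341 and 535 in SCLCs and 6 and 5 in todPGCLCs, in the order that the labels of the first 3 groups imply. Of 8 Sertoli cell markers listed, 7 were tested and 6 were called higher in SCLCs than in tc;Sf1ESCs, Nr5a1 among them, beside 24.1% of all genes tested. Gata4 was the high one, at 11011 and 12551 counts in SCLCs and 86 and 152 in todPGCLCs. The paper also found GATA4 protein in cells with HSD3B or StAR, proteins of steroid-producing cells, so Gata4 does not mark Sertoli cells alone. Sox9 had 206 and 130 counts in SCLCs and 68 and 132 in todPGCLCs, which overlap in CPM, and Cldn11 60 and 19 and 0 and 2. Wt1, at 60 and 23 and 332 and 293 counts, and Dmrt1, at 945 and 387 and 2747 and 3243, were higher in todPGCLCs than in SCLCs. Amh had 10 and 22 counts in SCLCs beside 15 to 24 in the ESC libraries, and Fshr 0 and 0, so the markers go only in part with the label. The SCLC pair was the least alike of the 4 pairs, with an SD of the log2 difference between replicates of 0.518 against 0.310 to 0.378 elsewhere. Visceral endoderm markers summed to 1695 and 3035 CPM in the SCLC libraries against 6.55 to 31.8 CPM in the other 6. The SCLC libraries also stood apart in alignment, with 5.004% and 4.649% of the deposited total (rows of no gene included) not aligned against 2.38% to 2.89% in the others, and 21.9% and 20.5% not aligned to a single place against 25.4% to 27.5%, and the part of this in the SCLC levels was not tested. In such bulk libraries, fewer cells of a type and less RNA per cell cannot be told apart.

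The response element shows in the DNA before these genes, and a few windows are printed because the genes turn up again below. In RefSeq's table of promoters (GRCm38.p6, 250 bases before to 50 after each start), 38 of the 49 genes had an entry. The search was for 2 copies of GAAA parted by any 2 bases, the core of the element, on either strand, and 18 of the 38 genes (47.4%) held it, against 38 of 112 (33.9%) of the other pathway genes and 1079 of all 27025 genes (3.99%). In the windows below, read 5′ to 3′ on the strand of the gene, capitals mark the core, which appears as TTTC, 2 bases and TTTC where it lies on the other strand.
Isg15, chr4:156200855-156200916, minus strand: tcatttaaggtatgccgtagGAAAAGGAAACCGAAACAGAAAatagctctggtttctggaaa
Bst2, chr8:71537567-71537622, minus strand: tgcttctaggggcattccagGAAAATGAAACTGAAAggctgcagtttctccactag
Gbp3, chr3:142559979-142560034, plus strand: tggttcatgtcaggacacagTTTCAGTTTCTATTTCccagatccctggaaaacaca
Ifit3, chr19:34583387-34583436, plus strand: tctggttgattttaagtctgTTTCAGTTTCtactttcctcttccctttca
Ifit3b, chr19:34607783-34607832, plus strand: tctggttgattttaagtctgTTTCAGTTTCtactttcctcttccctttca
B2m, chr2:122147528-122147577, plus strand: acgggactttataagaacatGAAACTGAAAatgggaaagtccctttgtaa
Stat2, chr10:128270256-128270305, plus strand: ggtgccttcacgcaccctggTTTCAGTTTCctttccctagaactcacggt
Ifih1, chr2:62646206-62646243, minus strand: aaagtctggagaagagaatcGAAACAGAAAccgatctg
Ifitm2, chr7:140955978-140956027, minus strand: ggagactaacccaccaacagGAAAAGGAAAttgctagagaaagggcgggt

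The Isg15 window held 3 overlapping cores beginning 78 bases before the start, and the Bst2 and Gbp3 windows 2 overlapping cores each. The Ifit3 and Ifit3b windows were letter for letter the same. The Ifih1 core lay 32 bases after the start. Of the 18 genes with a core, 16 were called higher in SCLCs than in tc;Sf1ESCs, and of the 20 without one 15 were, so the windows with the core do not hold all of the genes that were higher. Ifitm2 had a core and was lower. A match to these letters is a description of the sequence and not a measured site of binding.

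Across the 4 groups the 49 genes sat low in both ESC lines, higher in todPGCLCs and highest in SCLCs. Their median level was 1.10 CPM in tcESCs, 2.07 in tc;Sf1ESCs, 56.7 in SCLCs and 21.6 in todPGCLCs, and their summed level was 1208 and 1218 CPM in the tcESC libraries, 1148 and 1145 in the tc;Sf1ESC libraries, 5785 and 5679 in the SCLC libraries and 2639 and 2798 in the todPGCLC libraries. SCLCs had the highest mean for 39 of the genes, todPGCLCs for 8 (Oas2, Ifitm2, Ifnar1, Irf1, Irf5, Ifi27, Gbp2 and Parp12) and tcESCs for 2 (Mavs and Tmem173), on the scale of CPM. In the fit with TMM scaling, Oas2 and Irf5 were not above SCLCs in todPGCLCs (log2 fold changes of -0.02 ± 0.172 and -0.0033 ± 0.302), so their place depends on the scaling. The ESC lines were not empty of the pathway: 25 of them had a mean above 1 CPM in tcESCs and 27 in tc;Sf1ESCs, against 48 in SCLCs and 46 in todPGCLCs.

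**Figure D1:**
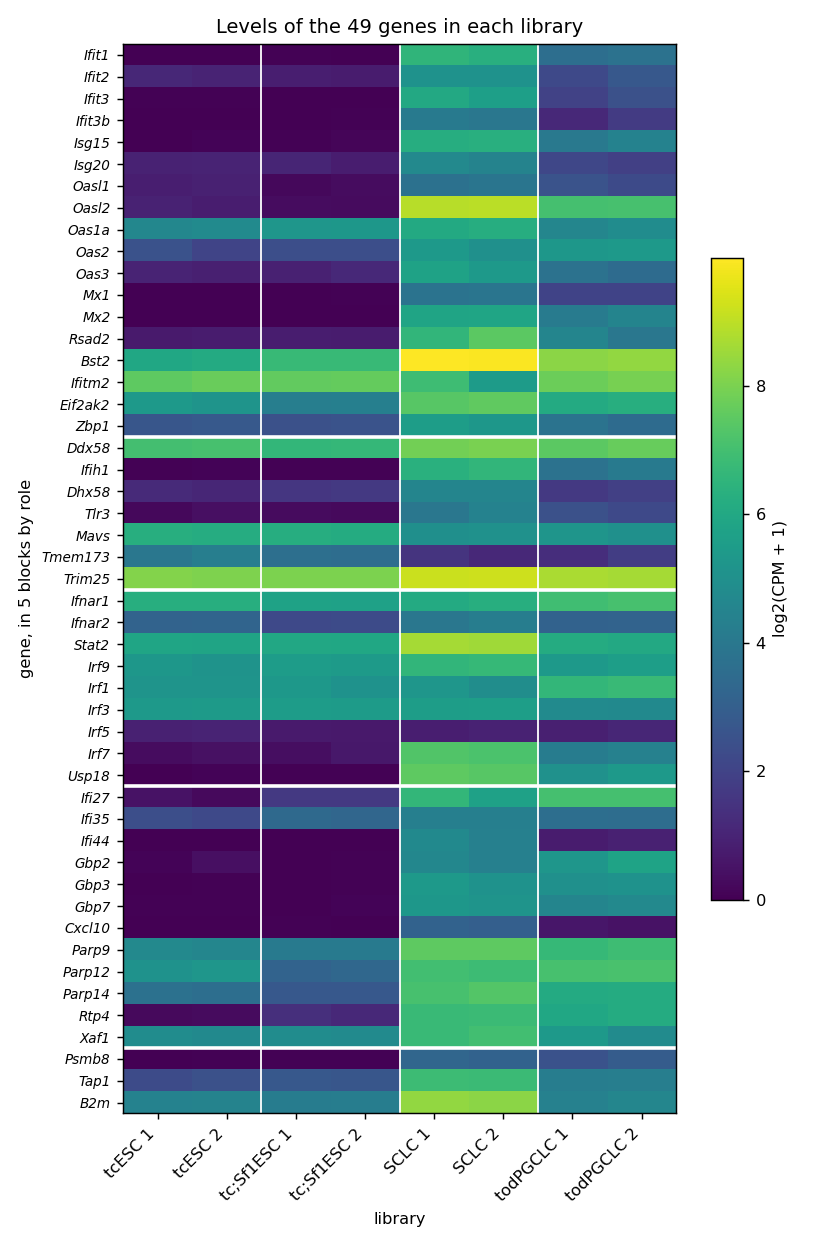
Level of each of the 49 genes (rows, in 5 blocks by role from effectors at the top to antigen presentation at the bottom) in each of the 8 libraries (columns), as log2(CPM + 1). The SCLC columns are the brightest for 39 genes, and 13 rows are at or near 0 in all 4 ESC columns.

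At the bottom of the ESC range, 13 genes had at most 3 counts in each of the 4 ESC libraries: Ifit1, Ifit3, Ifit3b, Isg15, Mx1, Mx2, Ifih1, Usp18, Ifi44, Gbp3, Gbp7, Cxcl10 and Psmb8. The same 13 genes had 207 to 4810 counts in each SCLC library and 11 to 1109 in each todPGCLC library, and for them no fold between the ESC lines is given. Per length of transcript, as TPM (levels scaled for length and depth), Ifitm2, Bst2 and Trim25 were the 3 highest of the 49 in both ESC lines, Ifitm2 at 1093 ± 96.6 TPM in tcESCs (SD, n = 2) and 1056 ± 18.3 in tc;Sf1ESCs. In SCLCs Bst2 came first at 4176 ± 116 TPM, followed by B2m, and in todPGCLCs Bst2 at 1284 ± 69.2 and Ifitm2 at 1261 ± 113 TPM were closer together than their spread.

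To be called, a gene had to pass a fold change of 2 and an adjusted p under 0.05 (Benjamini-Hochberg, over all genes tested) in the quasi-likelihood test of edgeR. Levels of a group are means ± SD (n = 2), and log2 fold changes are given ± their standard error. That standard error was worked back from the test, as the size of the log2 fold change over the square root of its F statistic. Between SCLCs and tc;Sf1ESCs, 41 of the 49 were called higher and 3 lower, where 24.1% of all 16481 genes tested were called higher and 18.1% lower. Against tcESCs the counts were again 41 higher and 3 lower, beside 24.3% and 18.3% of all genes. Between todPGCLCs and tcESCs, 32 were called higher and 2 lower, beside 18.1% and 11.2% of 16707 genes. Between todPGCLCs and SCLCs, 2 were called higher and 30 lower in todPGCLCs, beside 18.5% and 19.5%. Between tc;Sf1ESCs and tcESCs, 3 were called higher and 6 lower, beside 6.04% and 5.63%. The SCLC comparisons share the SCLC libraries and 2 of the others share tcESCs, so these counts are not independent of one another. The genes called higher against ESCs include the 13 with at most 3 counts in each ESC library. Those 13 passed the filter only through SCLCs or todPGCLCs, so against ESCs they could only be called higher.

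The median log2 fold change of the 49 genes was 4.72 between SCLCs and tc;Sf1ESCs, 4.31 between SCLCs and tcESCs, 2.24 between todPGCLCs and tcESCs, -1.68 between todPGCLCs and SCLCs and 0.04 between the ESC lines. With genes at 0 in a whole group placed at their lower bound, the median for todPGCLCs against tcESCs was 2.13 and the others were unchanged. Over all genes tested, the median lay between 0.000768 and 0.0459 in the 5 comparisons.

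**Figure D2:**
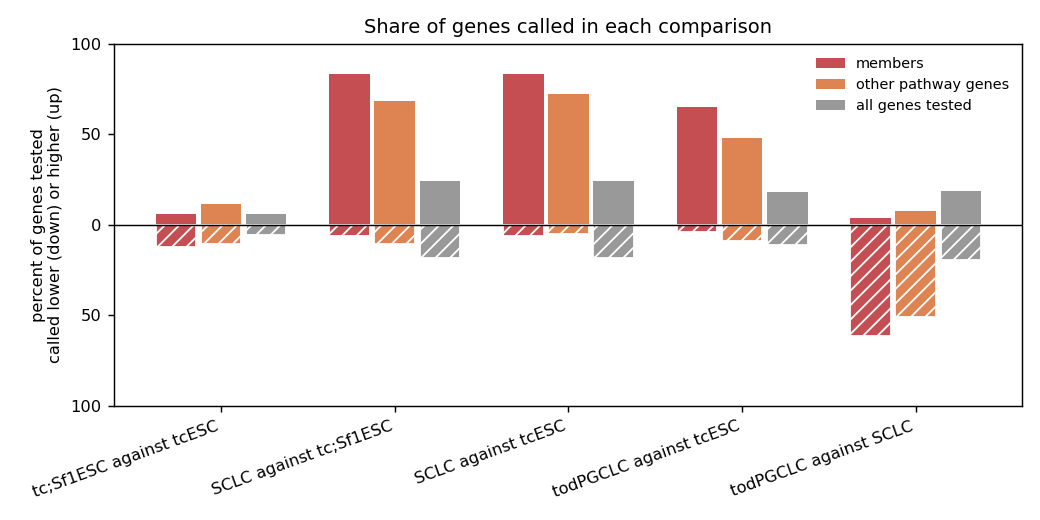
Percent of genes tested that were called higher (bars up) and lower (hatched bars down) in each of 5 comparisons, for the 49 genes (members), the other pathway genes and all genes tested. Of the members, 41 of 49 are higher in each SCLC comparison and 30 of 49 lower in todPGCLCs than in SCLCs.

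Placed side by side, 31 of the 49 genes were called higher in SCLCs against each ESC line and in todPGCLCs against tcESCs. Another 9 were called higher in both SCLC comparisons and not in todPGCLCs: B2m, Dhx58, Eif2ak2, Ifnar2, Irf9, Stat2, Trim25, Xaf1 and Zbp1. Mavs and Tmem173 were called lower in all 3, Ifitm2 lower in both SCLC comparisons, Ddx58 higher in SCLCs against tc;Sf1ESCs alone, Oas1a higher against tcESCs alone, and Irf1 higher in todPGCLCs alone. Ifnar1, Irf3 and Irf5 were called in none of these 3 comparisons. Some of these calls turned on 1 library near the 2-fold limit. Between todPGCLCs and tcESCs, Dhx58 was called without tcESC replicate 1, barely past 2-fold, and at a log2 fold change of 1.11 without todPGCLC replicate 1, and Zbp1 at 1.12 without todPGCLC replicate 2. Without SCLC replicate 1, Ddx58 was called at 1.01 against tcESCs and Oas1a at 1.045 against tc;Sf1ESCs. Whether a gene's change differs between SCLCs and todPGCLCs is given by their direct comparison.

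Among the 18 effectors, 16 were called higher in SCLCs than in tc;Sf1ESCs, 14 were called higher in todPGCLCs than in tcESCs and 16 were called lower in todPGCLCs than in SCLCs. The Ifit genes, whose proteins bind viral RNA and hold back its translation, lie together on chromosome 19. Ifit1 had 0 and 0 counts in tcESCs, 1 and 0 in tc;Sf1ESCs, 2459 and 2272 in SCLCs and 304 and 333 in todPGCLCs. It had at most 1 read in any ESC library, and todPGCLCs stood between ESCs and SCLCs without overlap. Relative to tcESCs, Ifit1 was at least 792-fold higher in SCLCs and at least 109-fold higher in todPGCLCs, bounds set by 3 counts per library. Ifit3 had 1 and 1 counts in tcESCs, 0 and 0 in tc;Sf1ESCs, 1697 and 1424 in SCLCs and 80 and 123 in todPGCLCs, and Ifit3b 0 and 0 counts in tcESCs, 0 and 1 in tc;Sf1ESCs, 439 and 419 in SCLCs and 34 and 62 in todPGCLCs, the same order at lower counts. Of the 50-base stretches in these transcripts, 51.2% of those in Ifit3 also occur in Ifit3b, so the split of reads between this pair is uncertain. Ifit2, at 30 and 31 counts in tcESCs and 21 and 19 in tc;Sf1ESCs, was the one Ifit gene with measurable levels in ESCs, and had 882 and 964 counts in SCLCs.

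Isg15, a small protein that is conjugated to others like ubiquitin, had 0 and 2 counts in tcESCs, 1 and 3 in tc;Sf1ESCs, 1979 and 2255 in SCLCs and 421 and 540 in todPGCLCs. Its SCLC level was 2136 (95% counting interval 591 to 17640) times that in tcESCs, and its todPGCLC level 498 (95% counting interval 138 to 4120) times. Usp18, which removes Isg15 from its targets and also silences the receptor through Ifnar2, had 0 and 2 counts in tcESCs, 1 and 1 in tc;Sf1ESCs, 4780 and 4810 in SCLCs and 895 and 1109 in todPGCLCs. Both genes were near 0 in ESCs and lower in todPGCLCs than in SCLCs, by a log2 fold change of -2.23 (standard error 0.164) for Isg15 and -2.35 (0.133) for Usp18. Isg20, an exonuclease that degrades RNA, had 666 and 610 counts in SCLCs against 20 to 30 in each ESC library.

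The oligoadenylate synthases make short chains of adenylate when they bind double-stranded RNA, and their like proteins Oasl1 and Oasl2 belong to the same family. Oasl2 had 24 and 23 counts in tcESCs, 7 and 6 in tc;Sf1ESCs, 12804 and 14477 in SCLCs and 3610 and 3577 in todPGCLCs, the largest gain in counts of the family. Its log2 fold change was 11.01 ± 0.126 (± standard error) between SCLCs and tc;Sf1ESCs and 7.23 ± 0.106 between todPGCLCs and tcESCs. Oas3 had 25 and 25 counts in tcESCs, 23 and 33 in tc;Sf1ESCs, 1401 and 1169 in SCLCs and 344 and 269 in todPGCLCs. Oas2 departed from the order of the others, with 1108 and 914 counts in SCLCs and 1056 and 1085 in todPGCLCs, and a log2 fold change between the last 2 groups of -0.02 ± 0.172 that was not called. Oas1a was at 604 and 804 counts already in tcESCs, and stayed at 639 and 745 in todPGCLCs. Its level is uncertain because 57.6% of its 50-base stretches occur in Oas1g as well.

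Mx1 and Mx2 belong to a family of GTPases, some of which trap viral ribonucleoproteins. Whether the RNA of either gene gives a working protein in these cells was not tested. Mx2 had 0 and 0 counts in tcESCs, 0 and 0 in tc;Sf1ESCs, 1495 and 1656 in SCLCs and 461 and 583 in todPGCLCs, and was at least 506-fold higher in SCLCs than in tc;Sf1ESCs and at least 179-fold higher in todPGCLCs than in tcESCs. Mx1 had 0 and 0 counts in tcESCs, 0 and 1 in tc;Sf1ESCs, 343 and 400 in SCLCs and 84 and 79 in todPGCLCs. Laboratory strains such as C57BL/6 are known to carry a defective Mx1. Rsad2, which encodes viperin, had 17 and 21 counts in tcESCs, 19 and 19 in tc;Sf1ESCs, 2482 and 5099 in SCLCs and 613 and 390 in todPGCLCs, and its SCLC replicates differed more than those of most effectors.

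Bst2, or tetherin, holds budding virus at the cell surface and was the most abundant of the 49 in SCLCs. It had 61.1 and 67.0 CPM in tcESCs, 104 and 106 in tc;Sf1ESCs, 1014 and 969 in SCLCs and 306 and 332 in todPGCLCs, 4 levels that did not overlap. Eif2ak2, the kinase PKR that stops translation when it binds double-stranded RNA, had 1060 and 1066 counts in tcESCs, 474 and 523 in tc;Sf1ESCs, 4406 and 5452 in SCLCs and 1862 and 1995 in todPGCLCs. Zbp1, a sensor of left-handed nucleic acid that triggers cell death, was at 1211 and 1095 counts in SCLCs and 355 and 270 in todPGCLCs against 119 to 183 in the ESC libraries.

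Ifitm2, which blocks the entry of viruses, moved the other way. It had 4586 and 6389 counts in tcESCs, 4981 and 5463 in tc;Sf1ESCs, 3125 and 1264 in SCLCs and 5842 and 6432 in todPGCLCs, so SCLC replicate 2 was far below replicate 1, and both were below every other library. The log2 fold change between SCLCs and tc;Sf1ESCs was -1.22 ± 0.384, and without SCLC replicate 2 it was -0.68. The call was lost in that case and also without either tc;Sf1ESC library, where the fold stayed over 2. Against tcESCs it was lost without either tcESC library and, at -0.67, without SCLC replicate 2, and for todPGCLCs against SCLCs, at 1.36 ± 0.350 with every library, it was lost at 0.81 without SCLC replicate 2. The pluripotency genes Nanog, at 1838 and 619 counts in the SCLC libraries, and Sox2, at 2687 and 1020, were also lower in replicate 2, and their part in the Ifitm2 values was not tested. Of the 50-base stretches of Ifitm2, 48.5% occur in other genes, so its level is uncertain too.

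**Figure D3:**
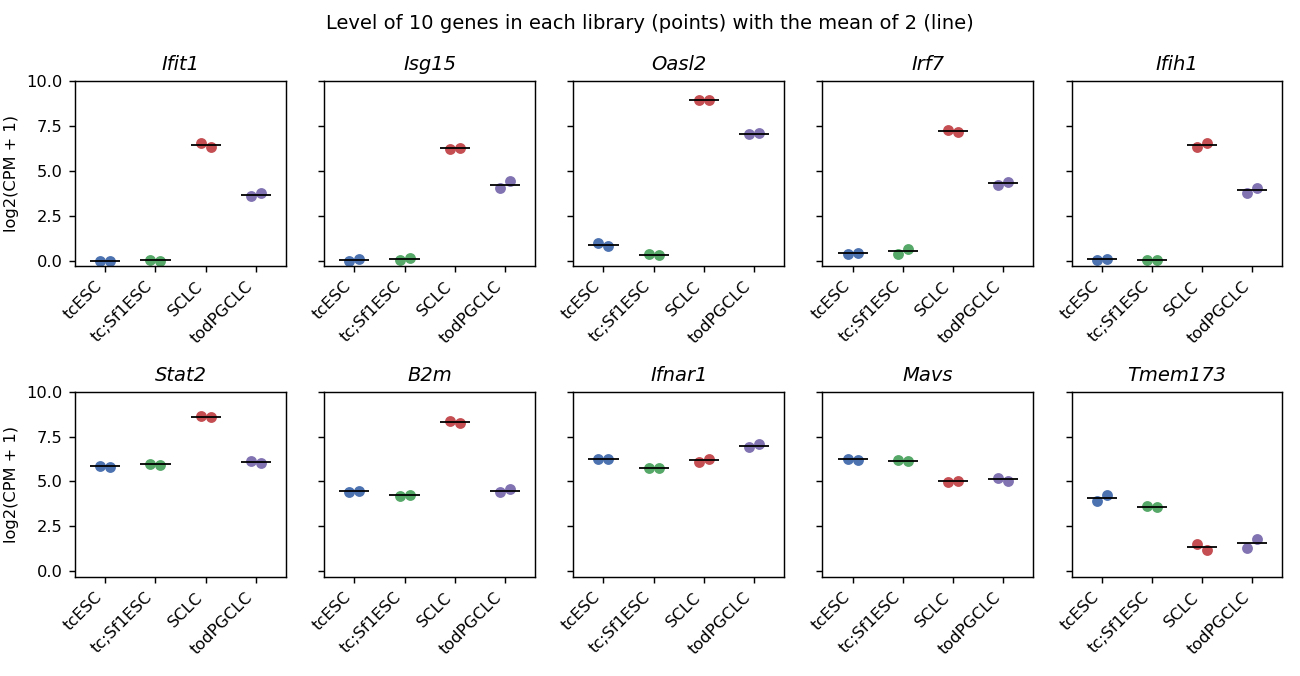
Level of 10 of the genes in each library (points) as log2(CPM + 1), with the mean of the 2 libraries of a group as a line. Ifit1, Isg15, Oasl2, Irf7 and Ifih1 lie near 0 in both ESC lines and step up to todPGCLCs and SCLCs, Stat2 and B2m step up in SCLCs alone, Ifnar1 is highest in todPGCLCs, and Mavs and Tmem173 are lower in SCLCs and todPGCLCs than in ESCs.

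The 7 sensors and adaptors parted into those that were higher in SCLCs and those that were lower. Ifih1, which encodes the sensor of long double-stranded RNA MDA5, had 1 and 2 counts in tcESCs, 1 and 1 in tc;Sf1ESCs, 2099 and 2720 in SCLCs and 349 and 418 in todPGCLCs. The ESC libraries were within 1 count of one another, and the todPGCLC libraries lay below those of SCLCs, with a log2 fold change of -2.74 ± 0.133. Ddx58, for RIG-I, which binds short RNA ends, was well above the floor in every library, with 3276 and 4113 counts in tcESCs, 2525 and 2788 in tc;Sf1ESCs, 6139 and 7280 in SCLCs and 4917 and 5413 in todPGCLCs. Its log2 fold change was 1.33 ± 0.0667 between SCLCs and tc;Sf1ESCs and 0.94 ± 0.0659 between SCLCs and tcESCs, which fell short of 2-fold. The 2 RNA sensors of one family thus started from different levels: Ddx58 at 68.7 ± 1.03 TPM in tcESCs (SD, n = 2) and Ifih1 at 0.0235 ± 0.00795 TPM.

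Dhx58, for LGP2, the third of that family, had 32 and 34 counts in tcESCs, 51 and 60 in tc;Sf1ESCs, 596 and 656 in SCLCs and 59 and 71 in todPGCLCs, and its log2 fold change for todPGCLCs against SCLCs was -3.36 ± 0.173. Tlr3, which senses double-stranded RNA in endosomes, had 4 and 10 counts in tcESCs, 6 and 5 in tc;Sf1ESCs, 384 and 592 in SCLCs and 125 and 95 in todPGCLCs. Trim25, a ubiquitin ligase that acts on RIG-I, was abundant throughout, from 257 ± 2.26 CPM in tc;Sf1ESCs (SD, n = 2) to 592 ± 9.25 in SCLCs.

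Mavs, the mitochondrial adaptor through which both RIG-I and MDA5 signal, had 1931 and 2220 counts in tcESCs, 1894 and 1906 in tc;Sf1ESCs, 813 and 936 in SCLCs and 1000 and 827 in todPGCLCs. Its level in SCLCs and todPGCLCs was below that in every ESC library, with log2 fold changes of -1.12 ± 0.0731 for SCLCs against tc;Sf1ESCs and -1.21 ± 0.0914 for todPGCLCs against tcESCs. Tmem173, for STING, the adaptor of the cytosolic DNA pathway, had 365 and 561 counts in tcESCs, 299 and 297 in tc;Sf1ESCs, 48 and 36 in SCLCs and 40 and 66 in todPGCLCs, and log2 fold changes of -2.82 ± 0.223 and -3.13 ± 0.268 in the same comparisons. Between todPGCLCs and SCLCs neither adaptor was called, and the sign of either difference turned when single libraries were left out.

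Of the 9 receptor, transcription factor and feedback genes, 5 were called higher in SCLCs than in tc;Sf1ESCs: Ifnar2, Stat2, Irf9, Irf7 and Usp18. The receptor chain Ifnar1 was present throughout, with 1903 and 2339 counts in tcESCs, 1390 and 1435 in tc;Sf1ESCs, 1785 and 2205 in SCLCs and 3304 and 3569 in todPGCLCs, and its levels in tcESCs and SCLCs differed by less than their spread (log2 fold change -0.01 ± 0.0774). The other chain, Ifnar2, had 202 and 255 counts in tcESCs, 94 and 106 in tc;Sf1ESCs, 386 and 520 in SCLCs and 218 and 213 in todPGCLCs. In SCLCs it was 2.17 ± 0.160 above tc;Sf1ESCs on the log2 scale and 1.06 ± 0.150 above tcESCs, and the second value was 0.90 without SCLC replicate 2. In todPGCLCs Ifnar2 was at the level of tcESCs.

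Stat2, a subunit of ISGF3, had 1481 and 1711 counts in tcESCs, 1625 and 1664 in tc;Sf1ESCs, 10553 and 11011 in SCLCs and 1932 and 1687 in todPGCLCs. It was 2.71 ± 0.0659 higher in SCLCs than in tc;Sf1ESCs on the log2 scale, while todPGCLCs were at 66.8 ± 4.69 CPM beside 57.0 ± 1.78 in tcESCs, a log2 difference of 0.16 ± 0.0719 that was not called. Irf9, the subunit of ISGF3 that recognizes its DNA element, had 964 and 1049 counts in tcESCs, 1159 and 1175 in tc;Sf1ESCs, 2474 and 2987 in SCLCs and 1105 and 1255 in todPGCLCs, again with SCLCs above the other 3 groups. Of the receptor's kinases, Jak1 had 1964 and 2405 counts in tcESCs, 1673 and 1807 in tc;Sf1ESCs, 3020 and 3709 in SCLCs and 2654 and 2436 in todPGCLCs and Tyk2 1504 and 1927 counts in tcESCs, 1473 and 1491 in tc;Sf1ESCs, 1487 and 1772 in SCLCs and 1545 and 1461 in todPGCLCs, and neither was called in the SCLC or todPGCLC comparisons with every library. Jak1 was called in SCLCs against tc;Sf1ESCs, at 1.04 beside 0.95 ± 0.0743, without SCLC replicate 1.

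Irf7, the factor that amplifies the making of interferon alpha, had 7 and 11 counts in tcESCs, 8 and 15 in tc;Sf1ESCs, 4070 and 4082 in SCLCs and 480 and 533 in todPGCLCs, with log2 fold changes of 8.46 ± 0.166 for SCLCs against tc;Sf1ESCs and 5.78 ± 0.200 for todPGCLCs against tcESCs. The todPGCLC libraries were below both SCLC libraries, by a log2 fold change of -3.10 ± 0.116. Irf3, which the adaptors activate first, was at 41.4 ± 0.672 CPM in tcESCs and 46.2 ± 0.921 in SCLCs, and lower in todPGCLCs at 26.2 ± 0.322, by less than 2-fold. Irf1, a factor induced by interferon gamma, had another order, with 882 and 1064 counts in tcESCs, 1013 and 916 in tc;Sf1ESCs, 982 and 843 in SCLCs and 2701 and 2830 in todPGCLCs, so that todPGCLCs alone stood apart. The log2 fold change was 1.49 ± 0.124 against tcESCs, and Irf1 was called higher against SCLCs too. Irf1 lies on chromosome 11, whose median gene was itself 0.52 higher in todPGCLCs than in tcESCs and 0.53 higher than in SCLCs on the log2 scale, and less that median the changes fell under 2-fold. Irf5 stayed at 17 to 31 counts in every library.

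All 12 of the other induced genes were called higher in SCLCs than in tc;Sf1ESCs, and 11 of them higher in todPGCLCs than in tcESCs. The guanylate-binding proteins Gbp2, Gbp3 and Gbp7, GTPases that attack the compartments of pathogens, lie together on chromosome 3. Gbp2 had 2 and 10 counts in tcESCs, 0 and 1 in tc;Sf1ESCs, 626 and 571 in SCLCs and 1006 and 1439 in todPGCLCs, Gbp3 had 0 and 1 counts in tcESCs, 0 and 1 in tc;Sf1ESCs, 1109 and 976 in SCLCs and 857 and 874 in todPGCLCs, and Gbp7 had 1 and 1 counts in tcESCs, 0 and 2 in tc;Sf1ESCs, 1014 and 1032 in SCLCs and 619 and 660 in todPGCLCs. Unlike most effectors, none of these 3 was called lower in todPGCLCs than in SCLCs, with log2 fold changes of 0.94 ± 0.226, -0.37 ± 0.151 and -0.77 ± 0.145. Gbp2 was called higher in todPGCLCs at 1.06 without SCLC replicate 1 and at 1.20 without todPGCLC replicate 1.

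Ifi44 and the chemokine Cxcl10, which draws T cells, had the steepest drop from SCLCs to todPGCLCs. Ifi44 had 0 and 0 counts in tcESCs, 0 and 0 in tc;Sf1ESCs, 691 and 570 in SCLCs and 19 and 23 in todPGCLCs, and Cxcl10 had 0 and 0 counts in tcESCs, 1 and 0 in tc;Sf1ESCs, 208 and 207 in SCLCs and 14 and 11 in todPGCLCs. Their log2 fold changes for todPGCLCs against SCLCs were -5.00 ± 0.266 and -4.14 ± 0.312, and relative to tcESCs they were at least 7.21-fold and at least 4.27-fold higher in todPGCLCs. Ifi27, a mitochondrial protein, ran in the opposite order, with 2596 and 1519 counts in SCLCs and 3649 and 3486 in todPGCLCs, and the log2 difference of 0.68 ± 0.231 was under the 2-fold limit, though it was called at 1.19 without SCLC replicate 1.

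Parp9, Parp12 and Parp14 belong to the ADP-ribosyltransferases, and Parp9 works with the ubiquitin ligase Dtx3l. Parp9 had 627 and 715 counts in tcESCs, 427 and 443 in tc;Sf1ESCs, 4747 and 5231 in SCLCs and 2835 and 3132 in todPGCLCs, and Parp14 had 314 and 342 counts in tcESCs, 149 and 158 in tc;Sf1ESCs, 3560 and 4586 in SCLCs and 1885 and 1838 in todPGCLCs. Parp12 had 33.5 and 37.2 CPM in tcESCs, 8.02 and 9.21 in tc;Sf1ESCs, 123 and 114 in SCLCs and 133 and 139.7 in todPGCLCs. Its last 2 levels lay near each other without overlap, and the log2 fold change of 0.07 ± 0.0836 between them was not called. Rtp4, a chaperone of receptors, had 5 and 7 counts in tcESCs, 40 and 33 in tc;Sf1ESCs, 2881 and 3218 in SCLCs and 1673 and 1839 in todPGCLCs. Xaf1, an antagonist of the apoptosis inhibitor XIAP, was at 115 ± 10.6 CPM in SCLCs and 25.8 to 28.2 CPM in the ESC libraries, and Ifi35 had 109 and 111 counts in tcESCs, 254 and 246 in tc;Sf1ESCs, 498 and 543 in SCLCs and 310 and 285 in todPGCLCs. Against tc;Sf1ESCs the log2 fold change of Ifi35 was 1.05 ± 0.136, and it was 0.97 without tc;Sf1ESC replicate 2. Its change in todPGCLCs against tcESCs, 1.41 ± 0.145, was under 2-fold less the median of chromosome 11, on which it lies.

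The 3 genes of antigen presentation were each called higher in SCLCs. B2m, the invariant light chain of MHC class I, had 524 and 641 counts in tcESCs, 452 and 496 in tc;Sf1ESCs, 8677 and 8794 in SCLCs and 554 and 611 in todPGCLCs. SCLCs alone were high, by 4.21 ± 0.0744 against tc;Sf1ESCs and by 3.99 ± 0.0733 against tcESCs on the log2 scale, and todPGCLCs were at the level of tcESCs (-0.02 ± 0.0844). Tap1, which carries peptides into the endoplasmic reticulum, had 98 and 139 counts in tcESCs, 147 and 151 in tc;Sf1ESCs, 3060 and 3188 in SCLCs and 488 and 484 in todPGCLCs, and Psmb8, a subunit of the immunoproteasome, 0 and 1 counts in tcESCs, 1 and 1 in tc;Sf1ESCs, 234 and 228 in SCLCs and 128 and 170 in todPGCLCs. The todPGCLCs thus had Tap1 and Psmb8 above tcESCs and B2m not, while the class I heavy chain H2-K1 had 459 and 648 counts in tcESCs, 365 and 384 in tc;Sf1ESCs, 22137 and 17145 in SCLCs and 2064 and 2762 in todPGCLCs and H2-D1 had 553 and 703 counts in tcESCs, 306 and 321 in tc;Sf1ESCs, 12567 and 12235 in SCLCs and 844 and 1198 in todPGCLCs.

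**Figure D4:**
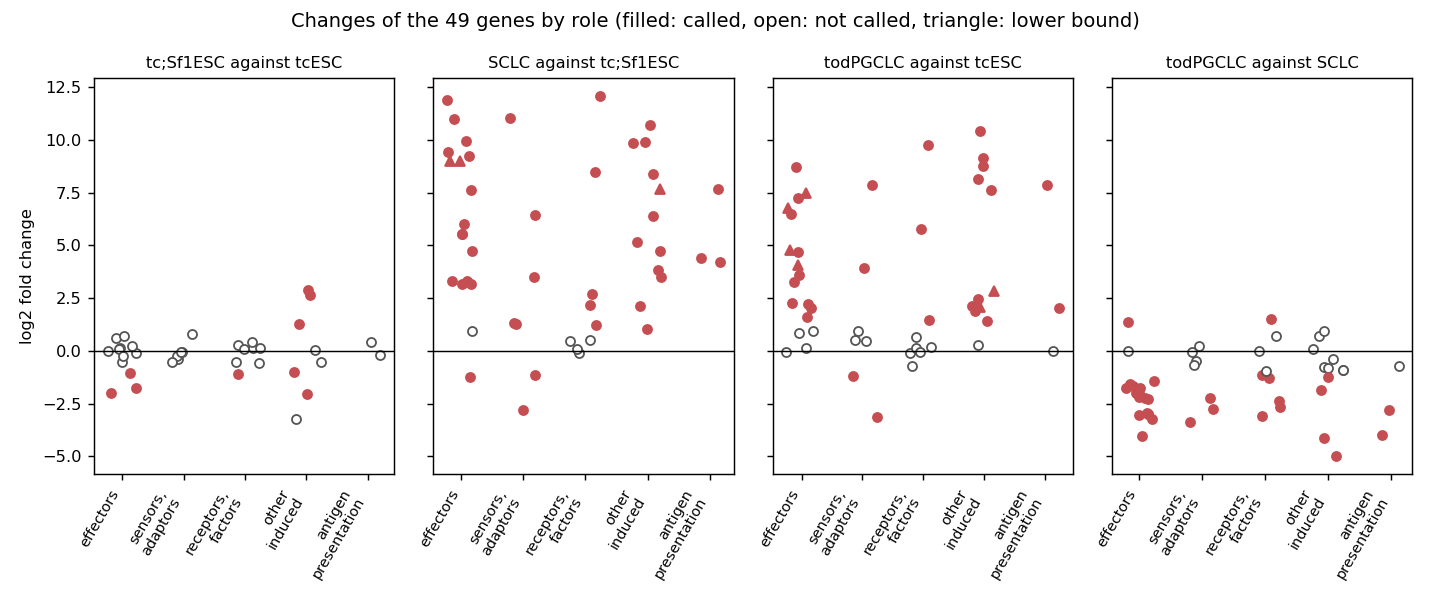
Log2 fold changes of the 49 genes by role in 4 comparisons, with filled points for genes called and open points for genes not called. Triangles are lower bounds against a group with no count, genes with at most 6 counts over both groups together are not drawn, and points against a group with a few counts are fitted values that depend on the prior count. Between SCLCs and tc;Sf1ESCs 41 points are filled above 0, and between todPGCLCs and SCLCs 30 are filled below 0.

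Between the 2 ESC lines 9 of the 49 genes (18.4%) were called, beside 11.7% of all genes. Ifi27, Rtp4 and Ifi35 were called higher in tc;Sf1ESCs, with log2 fold changes of 2.90 ± 0.634, 2.66 ± 0.253 and 1.26 ± 0.147. Parp12, Oasl1, Oasl2, Ifnar2, Eif2ak2 and Parp14 were called lower, with log2 fold changes of -2.02 ± 0.103, -1.99 ± 0.347, -1.76 ± 0.255, -1.11 ± 0.162, -1.02 ± 0.112 and -1.02 ± 0.121. The counts behind the first are small: Ifi27 had 10 and 6 counts in tcESCs and 56 and 59 in tc;Sf1ESCs, and Rtp4 5 and 7 and 40 and 33. Oasl1 had 20 and 27 counts in tcESCs, 4 and 7 in tc;Sf1ESCs, 327 and 405 in SCLCs and 133 and 100 in todPGCLCs, with tc;Sf1ESCs the lowest. Leaving out 1 library at a time left 6 to 9 genes called. Ifi27 failed the limits without either tcESC library, Eif2ak2 without tcESC replicate 1 (-0.89 at the nearest to 0) or tc;Sf1ESC replicate 1, Parp14 without tcESC replicate 1 (-0.94) and Oasl1 without tc;Sf1ESC replicate 1.

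The median gene of chromosome 16 was 0.46 lower in tc;Sf1ESCs than in tcESCs on the log2 scale, and 7 of the 49 genes lie there: Mx1, Mx2, Ifnar1, Ifnar2, Parp9, Parp14 and Rtp4. Less that median, Ifnar2 and Parp14 fell under 2-fold, and Rtp4 stayed called. The median gene of chromosome 8, which holds Bst2 and Tlr3, was 0.47 higher, and that of chromosome 6, which holds Parp12, Usp18 and Irf5, 0.31 lower. In SCLCs against tcESCs the median gene of chromosome 16 was 0.52 lower and that of chromosome 8 0.58 higher. In todPGCLCs against SCLCs it was 0.53 higher for chromosome 16, where Ifnar1 was 0.70 higher, and 0.54 lower for chromosome 8.

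The interferon ligands themselves were barely present in the libraries. Of 20 ligand genes listed, 12 had no count in any library. In the SCLC libraries Ifnb1 had 2 and 7 counts, Ifnl2 11 and 10, Ifnl3 4 and 11, Ifng 6 and 10 and Ifnk 16 and 38. In todPGCLCs Ifnb1, Ifnl2 and Ifnl3 had no count, which allows up to 3 counts, or 0.109 and 0.113 CPM, in those libraries. In the ESC libraries these 3 genes had 1 count in all, on Ifnl2 in tcESCs. Ifnk, with 3 and 5 counts in tcESCs and 1 and 2 in tc;Sf1ESCs, was the 1 ligand gene that passed the filter in the fit of SCLCs and ESCs. It was called higher in SCLCs against either ESC line, by 4.05 ± 0.677 and 2.78 ± 0.564, and both calls were lost without either SCLC library and with all 8 libraries in the fit, where its mean count fell under the filter. With every gene of at least 1 count tested, Ifnb1, Ifng, Ifnl2 and Ifnl3 were also called higher in SCLCs against both ESC lines.

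Of the 139 other pathway genes, 105 passed the filter beside SCLCs and 104 beside todPGCLCs. Between SCLCs and tc;Sf1ESCs 72 were called higher and 11 lower, beside 24.1% and 18.1% of all genes tested. Between SCLCs and tcESCs the counts were 76 and 5, beside 24.3% and 18.3%. Between todPGCLCs and tcESCs they were 50 and 9, beside 18.1% and 11.2%. Between todPGCLCs and SCLCs they were 8 and 53, beside 18.5% and 19.5%. Between the ESC lines they were 12 and 11, beside 6.04% and 5.63%. The split by direction depended on single libraries between SCLCs and tcESCs and between the ESC lines. Some genes, Irf2 for instance, passed the filter only through SCLCs or todPGCLCs. The median log2 fold changes of the list in the same order were 2.58, 2.39, 0.92, -1.08 and 0. This list was also drawn up with results of these data known.

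Among them, all 11 tested genes of antigen presentation were called higher in SCLCs than in tc;Sf1ESCs, beside 24.1% of all genes tested. So were 8 of 12 receptors, kinases and factors and 41 of 55 other interferon-stimulated genes. Of the 11 tested inhibitors 4 were called higher and 3 lower, beside 24.1% and 18.1% of all genes. Uba7, the enzyme that activates Isg15 for conjugation, had 15 and 20 counts in tcESCs, 11 and 5 in tc;Sf1ESCs, 1889 and 1798 in SCLCs and 246 and 297 in todPGCLCs. Ddx60, a helicase linked to RIG-I signalling, had 4 and 1 counts in tcESCs, 21 and 25 in tc;Sf1ESCs, 3480 and 3021 in SCLCs and 2752 and 2161 in todPGCLCs, and Irf2, a factor that binds the same elements as Irf1, had 5 and 4 counts in tcESCs, 18 and 13 in tc;Sf1ESCs, 609 and 896 in SCLCs and 149 and 131 in todPGCLCs. Others went against the trend: Aim2, a sensor of cytosolic DNA, had 808 and 928 counts in tcESCs, 3216 and 3398 in tc;Sf1ESCs, 192 and 161 in SCLCs and 2070 and 1804 in todPGCLCs, and Slfn9 had 678 and 715 counts in tcESCs, 844 and 842 in tc;Sf1ESCs, 91 and 77 in SCLCs and 483 and 443 in todPGCLCs.

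Of the receptor chains for interferon gamma and lambda, Ifngr1, Ifngr2 and Il10rb were called higher in SCLCs than in tc;Sf1ESCs and Ifnlr1 was not, while all 4 were called higher than in tcESCs. Ifngr1 had 82 and 129 counts in tcESCs, 168 and 161 in tc;Sf1ESCs, 928 and 933 in SCLCs and 258 and 214 in todPGCLCs, and Ifngr2 108 and 138 counts in tcESCs, 157 and 176 in tc;Sf1ESCs, 897 and 903 in SCLCs and 256 and 373 in todPGCLCs. Il10rb had 29 and 23 counts in tcESCs, 11 and 6 in tc;Sf1ESCs, 197 and 295 in SCLCs and 37 and 48 in todPGCLCs, and Ifnlr1 124 and 134 counts in tcESCs, 245 and 260 in tc;Sf1ESCs, 322 and 407 in SCLCs and 154 and 170 in todPGCLCs. In todPGCLCs against tcESCs, Ifngr1 and Ifngr2 were called higher and the other two were not, and Ifngr1 fell under 2-fold, at 0.93, without tcESC replicate 1. Myd88, the adaptor of most Toll-like receptors, had 264 and 291 counts in tcESCs, 293 and 284 in tc;Sf1ESCs, 894 and 1249 in SCLCs and 107 and 121 in todPGCLCs, so that todPGCLCs were lower than tcESCs and SCLCs higher. Socs1, an inhibitor of the Janus kinases, had 150 and 150 counts in tcESCs, 88 and 84 in tc;Sf1ESCs, 712 and 722 in SCLCs and 277 and 249 in todPGCLCs. Of 15 tested sensors and adaptors beyond the 49, 7 were called higher and 1 lower in SCLCs than in tc;Sf1ESCs, beside 24.1% and 18.1% of all genes.

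Markers of other cell types were followed in the same libraries. In SCLCs against tc;Sf1ESCs, 8 of 8 visceral endoderm markers and 7 of the 7 stromal markers tested were called higher, and 6 of 7 naive ESC markers lower. Of all genes tested, 24.1% were called higher and 18.1% lower in that comparison. Of 6 endothelial markers tested, Cdh5, Egfl7 and Esam were called higher and Tek lower. Cdh5 had 784 and 2043 counts in SCLCs against 1 to 3 in the ESC libraries, and Esam 1097 and 1556 against 14 to 26. In the SCLC replicates the sum was 1695 and 3035 CPM for visceral endoderm, 1171 and 1078 for stromal, 477 and 470 for Sertoli cell and 175 and 178 for endothelial markers, and 5785 and 5679 for the 49 genes. Of the 49 genes, 26 had the higher CPM in replicate 1 and 23 in replicate 2. Rsad2, at 93.6 and 175 CPM, was among the latter, and Ifi27, at 98.0 and 52.2, and Ifitm2, at 118 and 43.4, among the former. Cubn alone, an endocytic receptor of visceral endoderm, had 27982 and 61312 counts. What part cells of these types had in the SCLC levels of the 49 genes was not tested. Of 12 macrophage and leukocyte markers 3 were tested and 2 called higher, their sum was 57.4 and 59.4 CPM in SCLCs against 20.8 to 34.4 elsewhere, and it was mostly Cd68, at 1375 and 1398 counts in SCLCs. The other gene called was Csf1r, with 78 and 227 counts in SCLCs against 2 to 8 in the ESC libraries. Of the 9 not tested, Lyz2 had 15 and 38 counts in SCLCs and none in ESCs, Cd14 14 and 19 against 1 to 4, and Fcer1g 15 and 24 against 2 to 9. The other 6 had at most 4 counts in each SCLC library, and of these Ptprc and Adgre1 had none.

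The todPGCLCs were taken from organoids that also held cells of tc;Sf1ESC origin. The 8 Sertoli cell markers summed to 118 and 145 CPM in the todPGCLC libraries, against 477 and 470 in SCLCs and 13.7 to 18.5 in the ESC libraries. Most of that sum was Gata4 in SCLCs and Dmrt1 in todPGCLCs. The stromal markers summed to 55.2 and 53.9 CPM in todPGCLCs, against 1171 and 1078 in SCLCs and 9.22 to 10.9 in the ESC libraries, and the visceral endoderm sum in todPGCLCs was 20.1 and 31.8 CPM. In todPGCLCs against tcESCs, 4 of 7 stromal, 5 of 8 visceral endoderm, 4 of 7 endothelial and 4 of 7 Sertoli cell markers tested were called higher. Of all genes tested, 18.1% were called higher in that comparison. What part other cells of the organoids had in the todPGCLC levels of the 49 genes was not tested. Prdm1, the gene of the reporter used in the sort, had 4919 and 5140 counts in todPGCLCs and 308 and 217 in SCLCs.

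**Figure D5:**
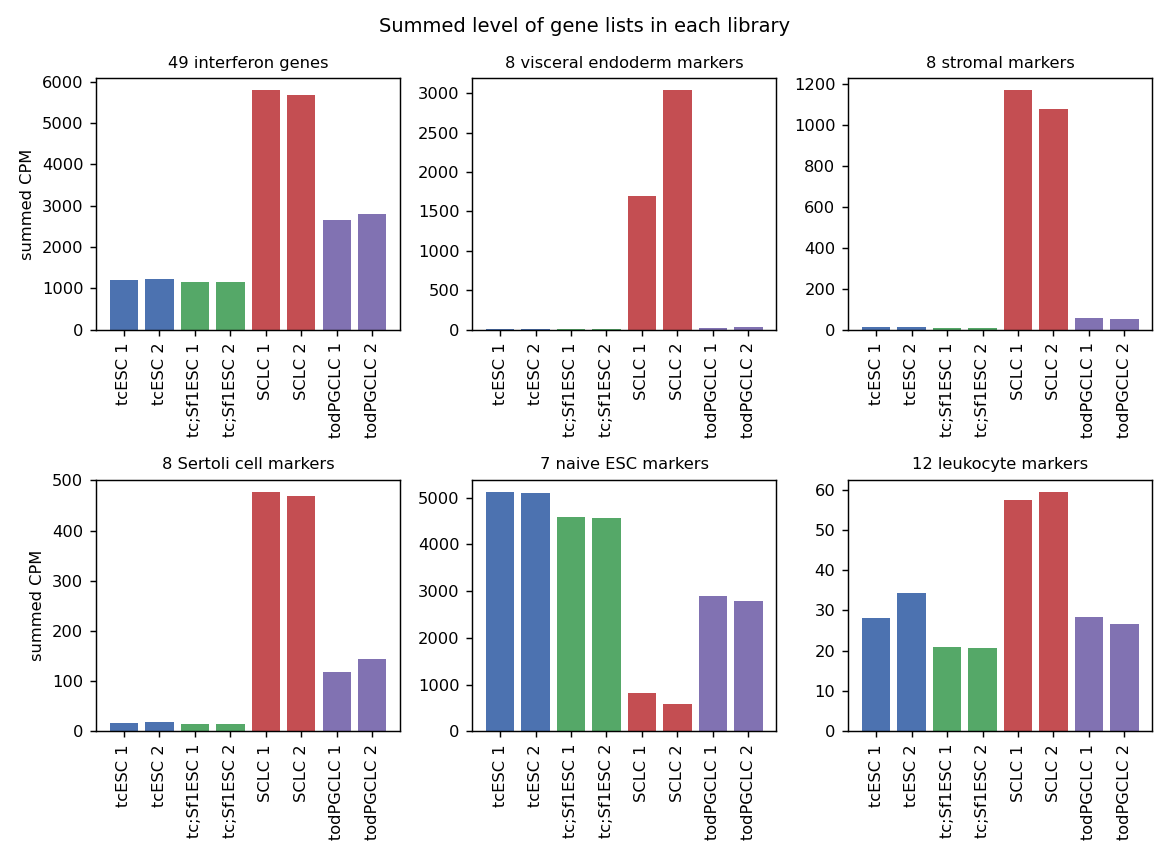
Summed CPM in each library (bars) of the 49 genes and of 5 marker lists, visceral endoderm, stromal, Sertoli cell, naive ESC and leukocyte, each panel with its own scale from 0. In the SCLC libraries the 49 genes sum to 5785 and 5679 CPM, the visceral endoderm markers to 1695 and 3035, the stromal markers to 1171 and 1078 and the Sertoli cell markers to 477 and 470, and for all 4 lists the SCLC bars are the highest. Most of the Sertoli cell sum in SCLCs is Gata4.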

How the data were processed

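RNA was sequenced from 2 libraries each of tcESCs, tc;Sf1ESCs, SCLCs (day 12) and todPGCLCs (day 6). The authors selected poly-A RNA, made strand-specific cDNA, filtered the paired reads, aligned them with STAR (2.4.0 in the submitters' processing notes) to GRCm38, and deposited raw counts of reads per gene from HTSeq, without normalization. Rows of no gene (ambiguous, not unique, not aligned or in no gene) held 35.6% to 41.6% of each library and were left out. Reads that fit more than 1 place are therefore missing from near-identical genes.

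From these counts, gene IDs were named with GENCODE M21 (45229 of 46078). For the ESC and SCLC comparisons, 1 model took those 6 libraries and the 16481 genes whose mean count exceeded 10, and for todPGCLCs another took all 8 libraries and 16707 genes, with TMM normalization and the quasi-likelihood test of edgeR 4.0.16 in R 4.3.3, Benjamini-Hochberg adjustment over all genes tested, a fold change over 2 and an adjusted p under 0.05. The study's own limits with DESeq2 (1.42.0 here) were an alternative, as were RLE size factors, every gene with at least 1 count, all 8 libraries, each library left out, the replicate number as a block and, for genes, less the chromosome's median. Same-numbered libraries did not deviate together (correlations -0.0259 to 0.0624).

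A fold against a group with no count is a lower bound at 3 counts per library, and against 1 to 3 counts in all a ratio with an exact 95% interval, which covers counting error only. CPM used library totals and TPM the exon length of each gene. With 2 libraries per group, labelled as biological duplicates, the spread is poorly known. The members and lists were chosen with earlier results of these data known, and adjusted p-values of single members are not printed for that reason. Values in every library were given for up to 5 members called in each direction per comparison (the largest changes with a mean of at least 1 CPM and libraries that do not overlap), for Ifnar1, Ifnar2, Stat2, Irf9, Ddx58, Ifih1, Tlr3, Mavs, Tmem173 and B2m, and for further members chosen by role after their values were seen. Promoters came from RefSeq (GRCm38.p6).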

Additional observations from a re-analysis of the deposited data

How the results depend on the processing

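Over all alternatives the number of members called was 6 to 10 between the ESC lines (6 without tcESC replicate 1), 42 to 45 between SCLCs and either ESC line, 34 or 35 between todPGCLCs and tcESCs and 31 to 34 between todPGCLCs and SCLCs, beside 9, 44, 44, 34 and 32 as reported. With the replicate block it was 9, 44, 44, 34 and 32, and the same-numbered libraries share only a number. Between the ESC lines, 14 to 18 of the other pathway genes were called when single libraries were left out, beside 23 with all. The count of 14 was that without tcESC replicate 2. Every other total of that list, both directions together, was within 1.5 times of the one reported. Some of its counts by direction moved further. Without SCLC replicate 1, Apobec3, Ifitm1, Pml and Socs3 were gained as lower in SCLCs than in tcESCs, beside the 5 reported. Their log2 fold changes there were -1.32, -1.63, -1.045 and -1.14. Values under the alternatives were followed for 201 of the 245 member results (49 genes in 5 comparisons), those called and those of 14 genes followed in every comparison. Of 1929 such values, 1882 kept their direction and their side of the limits, 20 fell out of the limits, 3 came within them (Oas1a once and Ddx58 on 2 occasions) and 24 turned in sign. Outside those, calls gained were Dhx58 (2 settings) and Zbp1 for todPGCLCs against tcESCs, Gbp2 (2 settings) and Ifi27 for todPGCLCs against SCLCs, each without 1 library, and Gbp2 between the ESC lines with every gene of at least 1 count.

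The values that turned in sign were those of genes close to no change. Leaving out single libraries gave log2 fold changes between the ESC lines of -0.64 to 0.38 for Tlr3 and -0.046 to 0.18 for Irf1. Between SCLCs and tc;Sf1ESCs it gave -0.25 to 0.0845 for Irf1, and between SCLCs and tcESCs -0.11 to 0.0842 for Ifnar1, -0.18 to 0.15 for Irf1 and -0.19 to 0.11 for Irf5. Between todPGCLCs and tcESCs it gave -0.11 to 0.0812 for B2m, -0.17 to 0.099 for Oas1a and -0.24 to 0.15 for Irf5, and between todPGCLCs and SCLCs -0.14 to 0.0832 for Mavs, -0.19 to 0.58 for Tmem173 and -0.20 to 0.18 for Irf5. Ifitm2 ran from -2.10 to -0.68 between SCLCs and tc;Sf1ESCs. Less the median of their chromosome, values of 0.50 for Ifnar1, 0.013 for Irf1 and 0.26 for Irf5 stood between SCLCs and tcESCs, 0.0033 for B2m, 0.0014 for Oas1a and 0.25 for Irf5 between todPGCLCs and tcESCs, and 0.021 for Irf5 between todPGCLCs and SCLCs, each on the other side of 0. On the same scale Ifnar2 and Parp14 between the ESC lines, Irf1 between todPGCLCs and either other group, and Ifi35 between todPGCLCs and tcESCs fell under 2-fold. The cause was not tested.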
